A study of Mus musculus with 15 samples.

Results

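The comparison set 3 pools of sorted kidney cells taken at postnatal day 4 (P4), labelled renal vesicle, against 3 pools taken on the day of birth (P0), labelled cap mesenchyme. These 6 samples, chosen by their titles, are the ends of a course of 15 samples that has 3 pools on each of 5 days. All 6 pools came from CD-1 mice with the Tg(Crym-EGFP)82Gsat transgene, a bacterial artificial chromosome that makes green fluorescent protein under the control of Crym sequence. About 4 kidneys were pooled for each sample, dissociated with trypsin and sorted by fluorescence, and the pups had been fostered to CD-1 females. The sex of the pups is labelled unknown, no agent was given, and every group carries the transgene, so there is no sample without it. The reporter marks whatever cells hold fluorescent protein on that day, and the P4 label differs from the P0 label in day and in compartment at once, so age and compartment cannot be told apart here. Values are log2 levels from single-colour arrays that read each transcript along its length. No label says that the pools came from separate litters. The p-values therefore measure only the spread between pools, which was estimated from all 15 samples. In such bulk samples, fewer cells of a type and less RNA per cell cannot be told apart.

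Nephrons form from the cap mesenchyme, a sheet of progenitor cells that surrounds each tip of the branching ureteric bud. Six2 and partner factors keep these cells in the progenitor state, and Wnt signals from the bud and from the cells themselves turn some of them into a pretubular aggregate and then into the renal vesicle, a small hollow epithelium. The vesicle lays down a basement membrane, forms cell junctions and acquires a distal and a proximal end under Notch, Wnt, FGF and BMP signals. In the mouse this process ends within days of birth, when the remaining progenitors differentiate.

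Of 19938 genes with a probe set of their own, 11885 passed the filter on low values and were tested. Of these, 276 passed it only through the P4 pools and 176 only through the P0 pools. Such genes were kept because of their level on that day, so list counts and medians describe the members tested and not all members. Of the 276, 87 rose by the test below, against 566 of the other 11609. Members named below that passed it only through the P4 pools include Emx2, Mal2, Spint1, Lfng, Lgr5, Fgfr4, Podxl, Pappa and Slc7a11. By limma, with the first replicates as a block and adjustment over all genes, 653 rose from P0 to P4 (5.49%) and 596 fell (5.01%), so that 1249 (10.5%) passed in either direction. At an unadjusted p under 0.05 there were 2653 (22.3%). By at least 2-fold, 177 genes rose (1.49%) and 132 fell (1.11%). The median difference was 0.67 log2 units in size among genes that passed and -0.0004 over all genes, and the median standard error was 0.13. In 1018 of the genes that passed (8.57% of those tested) all 3 P4 pools lay on one side of all 3 P0 pools. Without the block 669 genes passed (5.63%), 378 up and 291 down, and all 669 were among the 1249. In the words below, a gene rose or fell where it passed this test, and a call that was lost without the block, in replicates 2 and 3 alone or when 1 of the 6 pools was left out is marked as such.

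**Figure D1:**
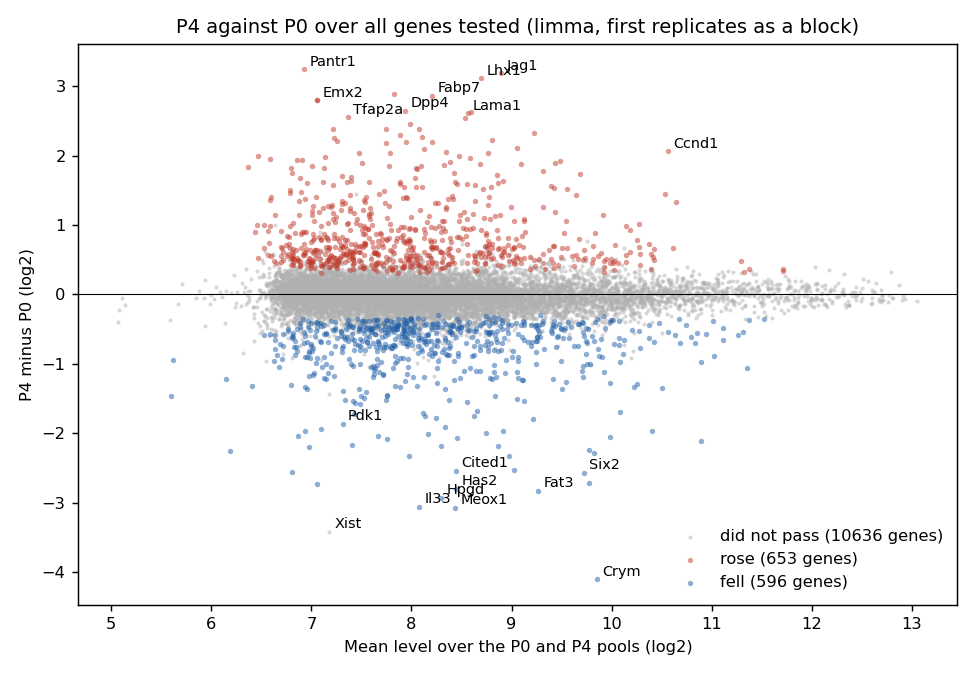
Each point is 1 of the 11885 genes tested, with its mean level over the P0 and P4 pools on the x axis and its P4 minus P0 difference on the y axis, both in log2 units. Red points rose (653), blue points fell (596) and grey points did not pass. Crym is the lowest point and Pantr1, Jag1 and Lhx1 are at the top.

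The first replicates stood apart from the others on every day. The spread of values within an array, as the interquartile range, was 2.14 to 2.27 in the 5 first replicates and 2.52 to 2.77 in the other 10 samples, and 5048 of the 11885 genes differed between these sets. Array medians were alike, at 6.80 to 6.92. Xist, which female cells express from the inactive X chromosome, was at 5.24, 10.71 and 10.71 in P0 replicates 1, 2 and 3 and at 5.92, 5.13 and 5.36 in the P4 pools. It was thus high in 2 of the 6 pools, both at P0, and its difference of -3.42 (SE 1.36, adjusted p = 0.139) did not pass, although it passed in replicates 2 and 3 alone and without P0 replicate 1. The Y-linked genes Uty (0.22), Eif2s3y (0.31) and Kdm5d (0.003) did not pass. The part of sex in the other results was not tested, and the first replicates are a pair of pools in which Xist was low on both days. In replicates 2 and 3 alone 703 genes passed (5.92%), of which 676 were among the 1249. Of these 703, 97.2% differed in the same direction in the first replicates, which that test did not use, against 65.7% of all genes tested. Their median difference was 0.77 log2 units in size in the first replicates and 0.98 in the others.

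**Figure D2:**
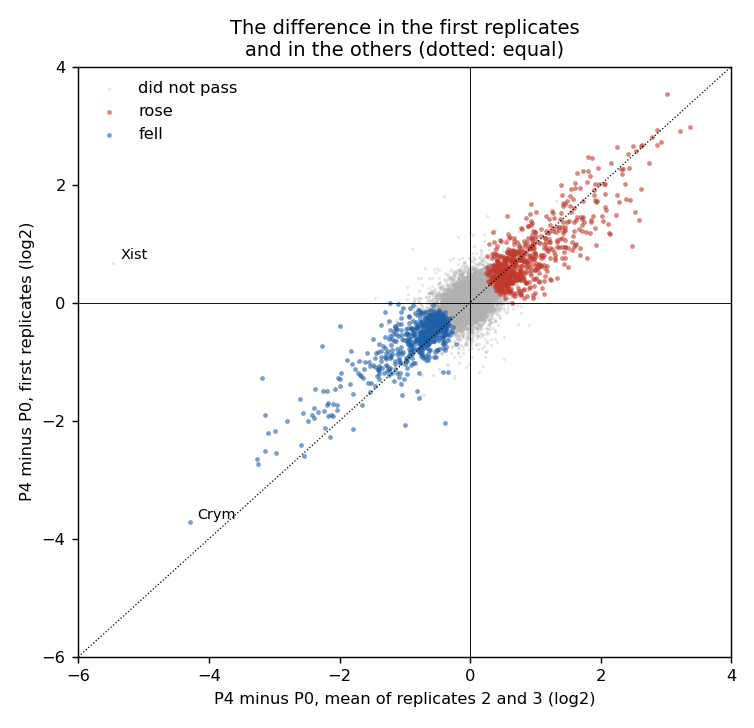
Each point is a gene, with its P4 minus P0 difference (log2) averaged over replicates 2 and 3 on the x axis and that of the first replicates on the y axis. Red and blue points, which rose or fell in the fit to all samples, lie mostly in the upper right and lower left of the plot, and Xist is low on the x axis alone.

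Crym itself, whose regulatory sequence drives the reporter and whose protein binds thyroid hormone, had the largest fall. Its level was 11.70, 11.87 and 12.15 in the P0 pools and 7.98, 7.68 and 7.75 in the P4 pools. This was a 17.2-fold fall (-4.10 log2 units, SE 0.16, adjusted p = 1.38e-09). The mean was 11.57 at P1, 11.56 at P2 and 10.43 at P3, so most of the fall lay between P3 and P4. The cells sorted at P4 therefore held far less Crym transcript than those sorted at P0. Crym was the only 1 of 7 tested genes of thyroid hormone handling that passed, a share of 14.3%, near the 10.5% of all genes tested.

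The labels were checked against markers. All 6 cap mesenchyme markers fell and 7 of 8 renal vesicle markers rose, Fgf8 being the exception (0.23, SE 0.12, adjusted p = 0.281). Of markers of other cells, Foxd1 (-1.24) and Pdgfra (-0.76) of the stroma fell, the latter not in replicates 2 and 3 alone or without P0 replicate 1, P0 replicate 2, P4 replicate 1 or P4 replicate 3, whereas Col1a1, Col3a1 and Dcn did not pass and Lum was not above the filter. Ret, Wnt11 and Krt19 of the ureteric bud, Pecam1, Tek, Kdr and Cdh5 of endothelium, Csf1r, Adgre1 and C1qa of macrophages, Nphs1 of podocytes and Cubn of the proximal tubule were not above the filter. Other markers of these cells were: Hoxb7 of the bud (means 8.29 at P0 and 8.43 at P4) and Slc34a1 of the proximal tubule (6.90 and 7.07) did not pass, while Podxl of podocytes (6.72 and 7.36) and Lrp2 (7.14 and 7.68) and Hnf4a (7.17 and 7.67) of the proximal tubule rose.

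Among the transcription regulators of nephron progenitors, 9 of the 16 tested fell and 1 rose, with a median difference of -0.52. Six2, which holds cells in the progenitor state, was at 10.72, 11.17 and 11.13 at P0 and at 8.11, 8.68 and 8.52 at P4, a 5.92-fold fall (-2.57, SE 0.15, adjusted p = 8.83e-08). The homeobox gene Meox1 had values of 9.65, 10.24 and 10.04 at P0 and 6.92, 6.60 and 7.18 at P4. It fell 8.42-fold (-3.07, SE 0.21, adjusted p = 1.89e-07), and its relative Meox2 fell 5.03-fold. Levels of Eya1, a cofactor of Six2, were 10.68, 11.13 and 11.09 against 9.05, 8.83 and 8.18, a 4.86-fold fall. Cited1, which marks the least committed progenitors, was at 8.73, 10.19 and 10.24 at P0 and at 6.72, 7.42 and 7.39 at P4 (-2.54, SE 0.30, adjusted p = 3.42e-05). Osr1 differed by -1.76 (adjusted p = 0.000129). For each of these genes all P4 pools lay below all P0 pools. Smaller falls were those of Hoxa11 (-0.75), Dpf3 (-0.73, lost without the block) and Hoxd11 (-0.31, adjusted p = 0.0486, lost without the block, in replicates 2 and 3 alone and without any 1 of the 6 pools), and Sox11, a factor of early neural and kidney development, rose by 0.55. Wt1 (0.01, SE 0.10), Sall1 (-0.14, SE 0.10) and Pax2 (0.05, SE 0.12), which also act in progenitors, did not pass. In Pax2 the P0 pools were at 10.00, 10.85 and 10.99 and the P4 pools at 10.18, 10.88 and 10.91, so the days overlapped and the low value on each day was that of the first replicate.

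The list of progenitor adhesion and signalling to the bud had 9 falls and 2 rises among 19 genes (median -0.43). Integrin Itga8, the cap mesenchyme receptor for nephronectin, fell 5.00-fold, with values of 10.08, 10.26 and 10.06 at P0 and 8.08, 8.09 and 7.26 at P4. Robo2, a Slit receptor that limits bud outgrowth, was at 10.83, 10.89 and 10.98 and then at 8.93, 8.64 and 8.40 (-2.25, SE 0.13, adjusted p = 8.83e-08). Gdnf, the ligand that draws the ureteric bud, was at 8.64, 8.79 and 8.71 at P0 and at 7.51, 7.23 and 7.44 at P4, a 2.49-fold fall (adjusted p = 1.17e-05). Other ligands that fell were the Wnt enhancers Rspo3 (-2.09) and Rspo1 (-0.75, lost without the block) and the progenitor growth factor Fgf20 (-1.07). Of the cadherins of mesenchyme, Cdh11 (-1.35) and Cdh2 (-0.69, lost without the block) fell. The members that rose were Npnt, the basement membrane ligand of Itga8 (0.96, SE 0.16), and Slit2, a ligand of Robo2 (0.67, SE 0.13), so both receptors fell while a ligand of each rose.

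Pretubular aggregate and renal vesicle genes moved the other way, with 18 rises and 1 fall among 23 genes tested (median 1.59). Emx2 and Greb1 passed the filter only through the P4 pools, and among the other 21 genes 16 rose (median 1.59). Lhx1, a homeobox factor needed for the vesicle, was at 6.56, 7.52 and 7.33 at P0 and at 9.47, 10.71 and 10.57 at P4. It rose 8.64-fold (3.11, SE 0.14, adjusted p = 5.84e-09). The Notch ligand Jag1 had levels of 6.81, 7.49 and 7.60 against 10.35, 10.75 and 10.36, a 9.10-fold rise, and Dll1, another Notch ligand, rose 2.04-fold. Emx2, a homeobox factor of the urogenital system, was at 5.10, 5.95 and 5.93 and then at 7.91, 8.70 and 8.76 (2.80, SE 0.20, adjusted p = 2.70e-07). The cadherin Cdh6, found in the early tubule, was at 7.93, 8.30 and 7.97 at P0 and at 10.20, 10.59 and 10.36 at P4, a 4.99-fold rise. The distance between the days in these genes exceeded the spread within each day. Pax8, a factor of nephron commitment, rose 2.87-fold, and Ccnd1, the G1 cyclin, rose 4.17-fold from 8.77, 9.96 and 9.85 to 11.05, 11.92 and 11.80. Wnt4, the autocrine inducer of epithelial conversion, rose by 0.95 (SE 0.16, adjusted p = 0.000685), less than most of the list, and its second probe set differed by 0.90. Also higher at P4 were Bmp2 (2.06), the odd-skipped factor Osr2 (2.19) and Lef1, a nuclear effector and target of Wnt signalling (1.59). Pla2g7, a phospholipase, was the member that fell (-0.97, SE 0.20, adjusted p = 0.0049).

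**Figure D3:**
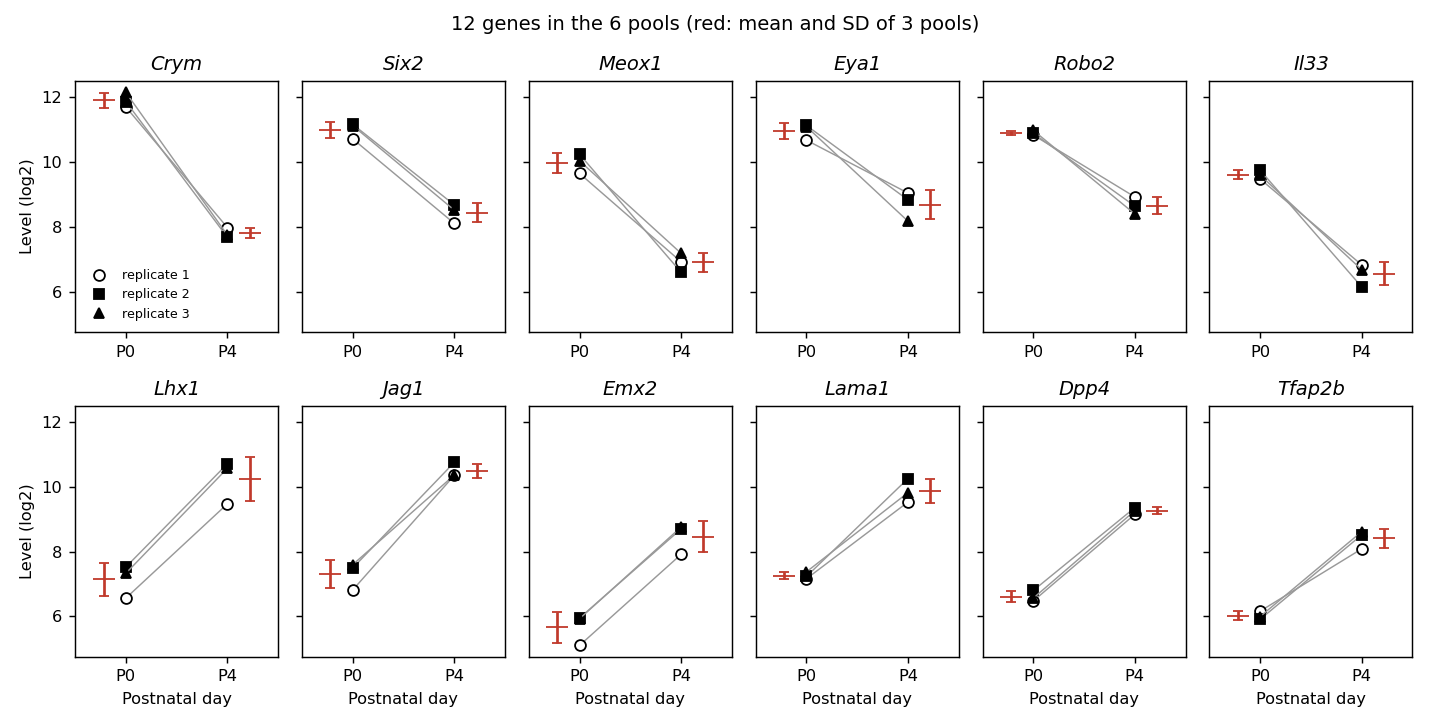
Levels (log2) of 12 genes in the 3 pools of P0 and the 3 pools of P4, with lines joining pools of the same replicate number, open circles for the first replicates and red marks for the mean and SD of each day. The upper 6 genes fell and the lower 6 rose, and in each of the 12 the pools of the 2 days do not overlap.

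The factors that mark the distal part of the early nephron and the distal tubule included 8 rises and no fall among the 13 of 19 genes that were tested (median 0.81). Tfap2a, Tfap2b and Gata3 passed the filter only through the P4 pools, and among the other 10 genes 5 rose (median 0.64). Tfap2a and Tfap2b, AP-2 family factors, rose 5.86-fold and 5.21-fold. Tfap2b was at 6.16, 5.91 and 5.995 in the P0 pools and at 8.08, 8.51 and 8.61 in the P4 pools. Sim1, a helix-loop-helix factor, rose 4.91-fold from 6.79, 6.55 and 6.89 to 9.05, 8.69 and 9.37. Gata3, a zinc finger factor of the distal nephron and duct, rose 3.52-fold, and its means were 6.12 at P1, 6.16 at P2 and 6.15 at P3, as low as at P0. Mecom (1.72), Prdm16 (1.21), Irx3 (0.81) and Esrrg (0.69) rose as well.

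Promoter sequence is shown for 3 of the genes that rose. They are examples whose windows hold a motif of a factor family with members among the genes that changed. Whether such factors act on these genes was not tested. These are windows of 250 bases before to 50 after a RefSeq start on build GRCm38.p6, 5′ to 3′ on the gene's strand, at chr2:137116471-137116770 (minus strand) for Jag1, chr15:13173626-13173925 (minus strand) for Cdh6 and chr10:110745189-110745488 (plus strand) for E2f7. Capitals mark TCAGGTT, a motif of Six2 and its relatives, at -129 from the start in Jag1, GCCNNNGGC, an AP-2 motif, at -162 in Cdh6, and TTCCCGC, an E2F motif, at -223 and, on the other strand, at -198 in E2f7.
Jag1: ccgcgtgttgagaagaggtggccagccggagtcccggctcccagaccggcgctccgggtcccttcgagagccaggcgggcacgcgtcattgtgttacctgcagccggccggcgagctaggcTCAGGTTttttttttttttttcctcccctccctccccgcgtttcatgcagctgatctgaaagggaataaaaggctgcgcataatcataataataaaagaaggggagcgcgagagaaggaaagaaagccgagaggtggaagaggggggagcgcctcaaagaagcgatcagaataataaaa
Cdh6: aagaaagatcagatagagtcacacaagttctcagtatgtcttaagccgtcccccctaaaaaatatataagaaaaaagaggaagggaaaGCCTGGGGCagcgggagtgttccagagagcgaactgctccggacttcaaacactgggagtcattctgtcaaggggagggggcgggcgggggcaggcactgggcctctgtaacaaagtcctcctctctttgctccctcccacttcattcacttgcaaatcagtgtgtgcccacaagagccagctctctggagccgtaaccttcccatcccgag
E2f7: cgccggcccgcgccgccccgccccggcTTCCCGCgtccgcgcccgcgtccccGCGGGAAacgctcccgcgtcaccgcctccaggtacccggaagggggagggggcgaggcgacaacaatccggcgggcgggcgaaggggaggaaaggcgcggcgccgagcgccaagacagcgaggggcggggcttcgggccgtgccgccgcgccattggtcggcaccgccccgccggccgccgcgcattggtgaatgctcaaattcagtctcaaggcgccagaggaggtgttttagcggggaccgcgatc
On both strands of 12007 such windows of 9487 tested genes, the Six2 motif was in 3.41%, against 3.55% for genes that rose and 3.30% for genes that fell. For the AP-2 motif the shares were 25%, 26.2% and 26.7%, for the E2F motif 8.2%, 7.5% and 6.12%, for the LEF/TCF motif CTTTGAT 2.60%, 2.73% and 2.83%, and for the RBPJ motif TGGGAA 23.1%, 23.3% and 20.3%, in the same order. These shares were not tested, and the printed matches are descriptions of letters, not of binding.

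Basement membrane genes and their integrins rose in 16 of 29 cases, with no fall (median 0.42). Laminin alpha 1 (Lama1), the chain of the earliest kidney tubules, was at 7.16, 7.23 and 7.37 at P0 and at 9.53, 10.25 and 9.82 at P4, a 6.11-fold rise (2.61, SE 0.18, adjusted p = 2.10e-07). Lamc1, the gamma chain that partners it, rose 2.73-fold, and the Fraser complex genes Frem2 and Fras1, which anchor epithelia to the membrane, rose 4.31-fold and 2.63-fold. Integrin Itga6, a laminin receptor, rose 3.03-fold from 8.23, 8.29 and 7.67 to 9.84, 9.71 and 9.44. Collagen Col4a1 rose by 0.56, lost without the block, and Lama5, the laminin chain of mature tubules, differed by 0.24 and did not pass (adjusted p = 0.135).

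Among cadherins and epithelial adhesion genes 13 of 28 rose and 2 fell (median 0.38). Mal2, Nectin4 and Spint1 passed the filter only through the P4 pools, and among the other 25 genes 11 rose (median 0.37). E-cadherin (Cdh1) was at 7.40, 6.98 and 7.07 and then at 8.58, 9.06 and 9.24, a 3.51-fold rise (adjusted p = 2.72e-06). Epcam, an epithelial surface protein, rose 2.26-fold, Mal2, of apical transport, 3.85-fold, and Spint1, a membrane protease inhibitor, 2.43-fold. The falls were those of Cdhr4 (-0.92) and of the large protocadherin Fat3, which was at 10.30, 10.89 and 10.86 at P0 and at 7.75, 8.20 and 7.62 at P4. Fat3 fell 7.10-fold on the probe set used, and its 14 other probe sets were lower at P4 too. Of 30 tight junction and polarity genes, 8 rose and 1 fell (median 0.19), and in replicates 2 and 3 alone 4 rose. Myo5b, a motor of apical vesicles, rose 4.25-fold, Cldn7 2.36-fold, Cldn6 2.09-fold and Marveld2 2.56-fold, while Shroom3, an organiser of apical actin, fell by 0.75.

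The interstitial matrix list held 6 falls and 3 rises among 30 genes (median -0.02). Has2, the hyaluronan synthase, fell 6.96-fold from 9.83, 10.09 and 9.63 to 7.62, 6.63 and 6.89, and the matrix protein gene Tgfbi fell 5.77-fold. Cped1, whose function is little known, fell 6.60-fold and the matricellular Thbs1 3.43-fold. Fstl1, a secreted glycoprotein, rose by 1.09, and Adamts1, a matrix protease, by 0.76, the latter lost in replicates 2 and 3 alone. Fibronectin (Fn1) rose by 0.64, a call lost without the block, in replicates 2 and 3 alone and without any of P0 replicate 2, P0 replicate 3, P4 replicate 1 and P4 replicate 2.

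In the Notch pathway 5 of 25 genes rose and 1 fell (median 0.06, 24% called against 10.5% of all genes tested), beside the ligands above. Hey1, a target of the pathway, was at 8.32, 9.38 and 9.07 at P0 and at 9.84, 10.73 and 10.51 at P4, a 2.71-fold rise. The receptor Notch1 rose 2.48-fold and Nrarp, a target that feeds back on the pathway, 2.27-fold, while Hes1, another target, differed by -0.12 and did not pass. Lfng, which modifies the receptor, rose by 0.58, and Adam10, which cleaves it, fell by 0.96. These calls, and that of the receptor Notch2 (0.49), were lost in replicates 2 and 3 alone, and those of Lfng and Notch2 also without the block.

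Of 43 Wnt pathway genes, 8 rose and 5 fell (median 0.15). The rises included the R-spondin receptors Lgr4 (1.06, lost in replicates 2 and 3 alone) and Lgr5 (0.82), the coreceptor Lrp5 (0.56, lost without the block) and the inhibitor Dkk2 (0.60). The falls were those of Fzd2, a receptor (-1.10), and Tcf7l1, a repressor of Wnt targets (-0.76), both lost without the block. Ryk (-0.63), a coreceptor, Dact1 (-0.70) and Tcf7l2 (-0.40) fell too, the last pair not in replicates 2 and 3 alone or without P0 replicate 2 or P4 replicate 3, and Tcf7l2 neither without the block nor without P0 replicate 3, P4 replicate 1 or P4 replicate 2. Between 4 and 5 genes rose without P0 replicate 1, P0 replicate 2 or P4 replicate 3, and 3 fell without P0 replicate 2 or P4 replicate 3.

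BMP and TGF-beta genes had 8 rises and 4 falls among 38 (median 0.05), with 4 rises without P0 replicate 1 and 5 without P0 replicate 2 or P4 replicate 1. Bmp4, a ligand, was at 7.27, 8.13 and 7.86 at P0 and at 9.26, 9.55 and 9.23 at P4, a 3.01-fold rise, and Crim1, a transmembrane binder of BMPs, rose 2.28-fold. The ligands Tgfb3 (-1.53) and Tgfb2 (-0.98) fell. So did the signal transducer Smad5 (-0.44, lost in replicates 2 and 3 alone) and the receptor Acvr2a (-0.44), whose call was lost without the block, in replicates 2 and 3 alone and without P0 replicate 1, P0 replicate 2 or P4 replicate 3. In the FGF list 4 genes rose and 5 fell among 28 (median -0.01). Fgf1 (-1.46) and Etv1, a factor induced by FGF signals (-1.76), fell. The heparan sulfate editing enzymes Sulf1 and Sulf2 moved in opposite directions, at 1.14 and -1.19, the latter lost without the block. The feedback inhibitors Spry1 (0.56) and Spry4 (-0.75, lost without the block) were opposite too. Kit, a receptor kinase, rose by 0.92 and the ligand Fgf10 fell (-0.65), the call of Kit being lost in replicates 2 and 3 alone. The receptor Fgfr4 rose by 0.48 (adjusted p = 0.0422), lost without the block, in replicates 2 and 3 alone and without P0 replicate 2 or any P4 pool. Crabp2, which carries retinoic acid to its receptors, fell 4.16-fold, with Dhrs3 (-0.84) and Rara (-0.51, lost without the block), the only 3 of 12 retinoic acid genes that passed.

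Axon guidance molecules, which also sort cells at tissue borders, rose in 11 and fell in 3 of 49 cases (median 0.18). Unc5b passed the filter only through the P4 pools, and among the other 48 genes 10 rose (median 0.15). The ephrin ligand Efnb2 was at 8.09, 8.21 and 8.19 and then at 9.92, 10.30 and 9.89, a 3.66-fold rise, and its receptor Epha4 rose 3.67-fold and Epha7 3.36-fold. The Slit receptor Robo1 rose by 0.99, opposite to Robo2 above. Unc5c (-1.26), Sema4g (-1.17) and Plxna3 (-0.35, adjusted p = 0.0463, lost without the block, in replicates 2 and 3 alone and without any 1 of the 6 pools) fell.

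**Figure D4:**
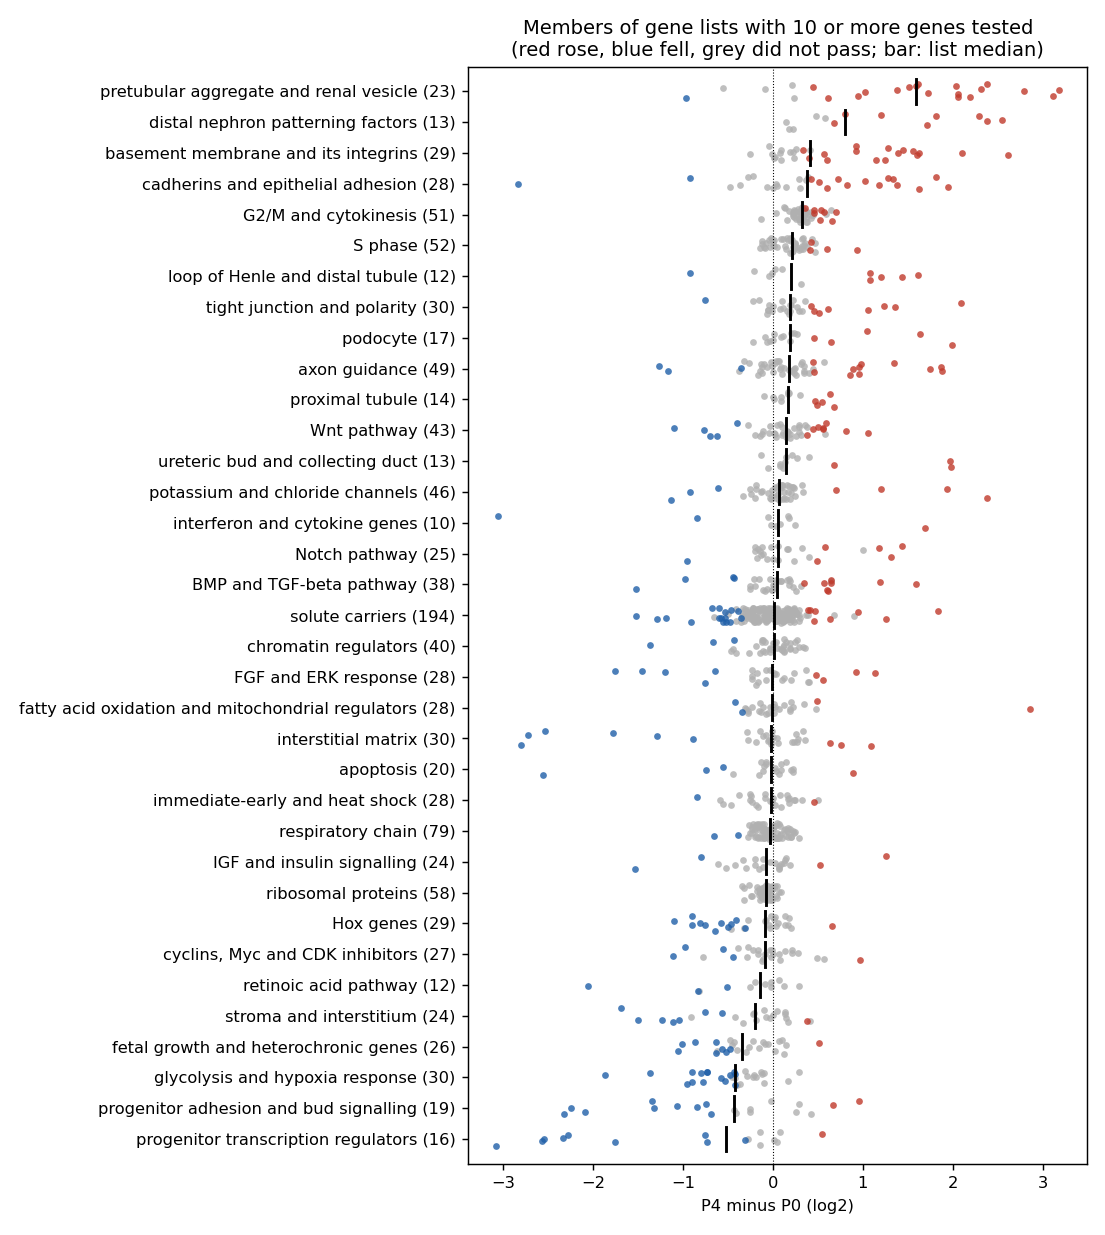
Each point is a gene of the list named on the y axis, which gives the number of genes tested in brackets, and the x axis is its P4 minus P0 difference (log2). Red points rose, blue fell, grey did not pass and the bar is the list's median, which runs from -0.52 for progenitor transcription regulators to 1.59 for the pretubular aggregate and renal vesicle. Some genes are in more than 1 list.

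Genes of glycolysis and of the response to low oxygen fell in 15 of 30 cases and rose in none (median -0.42), and 9 fell without the block. Pdk1, the kinase that keeps pyruvate out of the mitochondrion, was at 8.31, 8.41 and 8.02 at P0 and at 6.85, 6.20 and 6.09 at P4, a 3.65-fold fall (-1.87, SE 0.17, adjusted p = 1.94e-06). P4ha1, a collagen prolyl hydroxylase induced by low oxygen, fell 2.57-fold. The glycolytic enzymes Aldoa, Ldha and Pfkl fell 1.86-fold, 1.86-fold and 1.74-fold. Aldoa was at 10.18, 10.21 and 10.57 in the P0 pools and at 9.36, 9.46 and 9.46 in the P4 pools, with no overlap. Car9 (-0.96), Egln3 (-0.77) and Bnip3 (-0.74), which respond to hypoxia, fell too. Car9 and Egln3 were the 2 members of the list that passed the filter only through the P0 pools, and both are among the 15 falls. Hk2, the first enzyme of glycolysis, did not pass (-0.36, adjusted p = 0.218), and the call of the glucose transporter Slc2a1 (-0.47, adjusted p = 0.0135) was lost without the block, in replicates 2 and 3 alone and without P0 replicate 1, P0 replicate 3 or P4 replicate 2. The list's median was lower at P4 in every replicate pair, at -0.31, -0.45 and -0.61 in replicates 1, 2 and 3. Against P0 it was -0.22 at P1, -0.20 at P2, -0.30 at P3 and -0.42 at P4, and these 4 differences share the P0 pools.

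On the days between, the glycolytic enzymes and the distal and epithelial genes had these levels. Pfkl had a mean of 7.83 at P0, 7.11 at both P1 and P2, 6.95 at P3 and 7.03 at P4, so its lower level was present at P1. Means of Dpp4, a peptidase of the tubule brush border that rose 6.25-fold, were 6.61, 6.38, 6.46, 6.74 and 9.25 from P0 to P4. Its P4 pools were at 9.15, 9.36 and 9.26. Lama1 was at means of 7.16, 7.29 and 7.82 at P1, P2 and P3, against 9.87 at P4. These courses are descriptions and were not tested against each other.

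**Figure D5:**
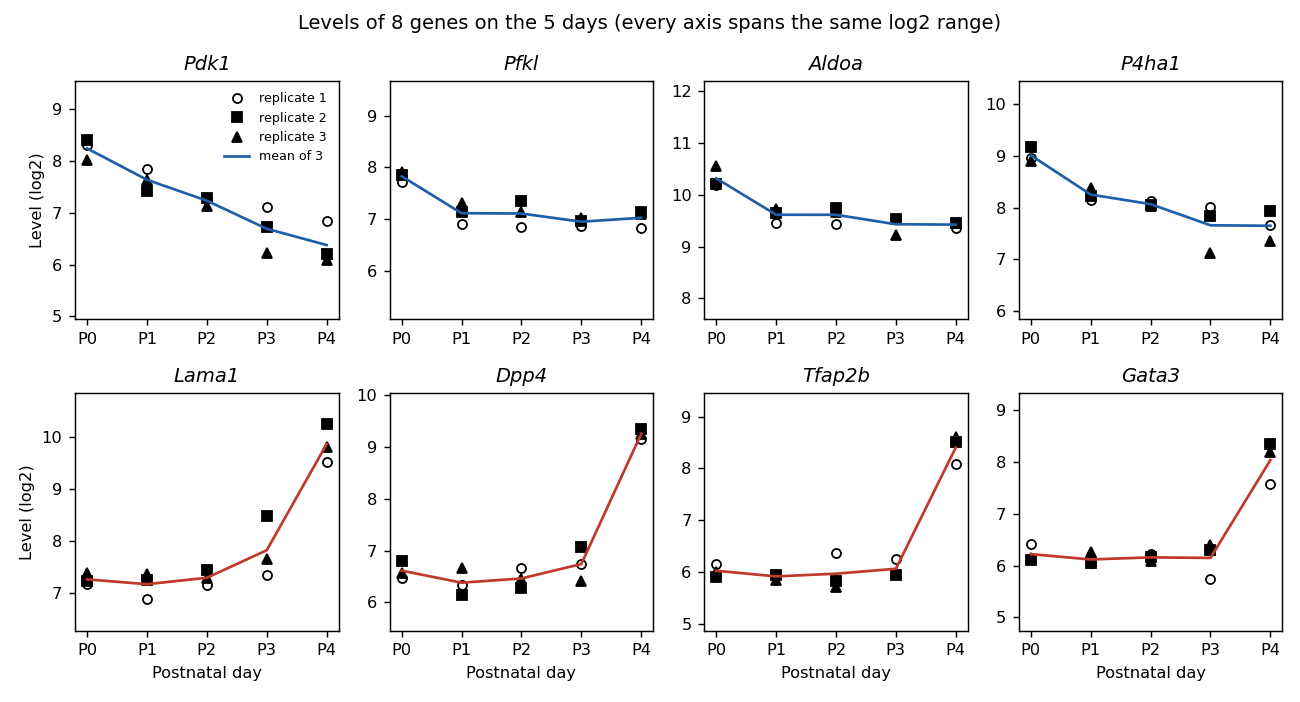
Levels (log2) of 8 genes on the 5 days, with open circles for the first replicates, filled squares and triangles for replicates 2 and 3 and a line through the mean of the 3 pools. The means of Pfkl and Aldoa were lower by P1, while those of Dpp4, Tfap2b and Gata3 stayed low to P3 and were high at P4.

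Fetal growth and developmental timing genes fell in 8 and rose in 1 of 26 cases (median -0.35), with 3 falls without the block. Mest, an imprinted gene active in fetal tissue, was at 11.72, 12.02 and 11.89 and then at 10.71, 10.99 and 10.77 (-1.06, SE 0.10, adjusted p = 3.99e-06). The growth factor gene regulator Plag1 fell by 1.01 (adjusted p = 0.0445), lost without the block, in replicates 2 and 3 alone and without any of P0 replicates 1, 2 and 3 and P4 replicates 1 and 3, and the calls of Peg3 (-0.86), Grb10 (-0.63) and Hmga2 (-0.63) were lost without the block. Igf2, the main fetal growth factor, differed by -0.11 and did not pass, while Igf2r, which removes it, rose by 0.51, lost without the block, in replicates 2 and 3 alone and without P4 replicate 1. Hox genes, which set position along the body, fell in 11 and rose in 1 of 29 cases (median -0.09), with 4 falls without the block and 7 in replicates 2 and 3 alone. Hoxc4 fell 2.14-fold and Hoxd10 less (-0.58), while Hoxd8 rose by 0.65, lost in replicates 2 and 3 alone.

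Of 51 genes of G2/M and cytokinesis 8 rose and none fell (median 0.32). This share of 15.7% called stood against 10.5% of all genes tested. At an unadjusted p under 0.05 there were 31 of the 51, against 22.3% of all genes tested. None rose without P4 replicate 2, 1 without P0 replicate 3 and 1 without the block. There were 13 rises without P3 replicate 3 and 23 after quantile normalization. Their median against P0 was -0.60 at P1, 0.12 at P2, 0.47 at P3 and 0.32 at P4, with the P0 pools shared. Aurka, a mitotic kinase, was at 8.08, 8.67 and 8.48 at P0 and at 8.34, 9.59 and 9.40 at P4, which overlap, and its call was lost without the block and without P0 replicate 3, P4 replicate 2 or P4 replicate 3. Of 52 S phase genes 4 rose, a share of 7.69%, near the 5.49% of all genes tested that rose. There were 2 rises without the block or without P0 replicate 1, P4 replicate 1 or P4 replicate 2, 10 without P4 replicate 3 and 9 without P3 replicate 3. E2f7, a repressor among the E2F factors, rose from 7.48, 7.67 and 7.81 to 8.31, 8.76 and 8.70 (0.94, SE 0.10, adjusted p = 6.89e-06), and Rrm2, which makes deoxynucleotides, by 0.60, while the replication factors Cdc45 (0.43) and Chaf1a (0.41) rose in the fit to all samples and lost their calls in 8 and 9 of the alternatives, among them no block and replicates 2 and 3 alone. Of 27 cyclins, Myc genes and CDK inhibitors, 1 rose and 4 fell (18.5% called), with 1 fall without the block and 2 without P0 replicate 3. Myc, a growth regulator of progenitors, fell by 1.11, a call lost without the block, and Tob1, which restrains proliferation, also fell (-0.98), while Cdk6, a partner of D cyclins, rose by 0.97. Gas1 (-0.44) and Ccng1 (-0.55) fell, both lost without the block, in replicates 2 and 3 alone and without P0 replicate 3, Gas1 also without P4 replicate 2 and Ccng1 without P0 replicate 2 or P4 replicate 3. Of 20 apoptosis genes 20% were called. Bcl2 (-0.74) and Traf1, a signalling adaptor (-2.55), fell and Casp8 rose (0.89). Bcl2l11 fell too (-0.56, lost without the block, in replicates 2 and 3 alone and without P4 replicate 3).

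Genes of later nephron segments rose in part. Of 12 genes of Henle's loop and the distal tubule 5 rose and 1 fell (median 0.21), of 25 on the array. Tmem52b, Kcnj16 and Sostdc1 passed the filter only through the P4 pools, and among the other 9 genes 3 rose (median 0.1). The summed level of all 25, which includes the genes that rose, was 11.42 to 11.54 over the P0 pools and 11.82 to 12.06 over the P4 pools (log2). Tmem52b rose 3.07-fold, Cdh16, the kidney cadherin, 2.72-fold and the potassium channel Kcnj16 2.29-fold. The sodium pump subunit Atp1b1 rose by 1.08, and Wfdc2 by 1.09, the latter lost without the block, in replicates 2 and 3 alone and without any 1 pool but P4 replicate 1. Ppp1r1a fell (-0.92, lost without the block). Of 17 podocyte genes 5 rose (29.4% called, against 10.5% of all genes tested), and 3 without P0 replicate 2, P4 replicate 2 or P4 replicate 3. Dach1 was at 7.99, 8.35 and 7.95 and then at 9.44, 9.95 and 9.82, a 3.12-fold rise, and Cldn5, a claudin of podocytes and endothelium, rose 3.97-fold. Plce1, a phospholipase, rose 2.07-fold, and the calls of Podxl (0.65) and Sema3g (0.46) were those lost, that of Sema3g also without the block and in replicates 2 and 3 alone. In the proximal tubule list 5 of 14 rose (35.7% called), against 2 without the block, P0 replicate 2 or P4 replicate 3 and 3 without P4 replicate 2. Lrp2, the endocytic receptor megalin, rose by 0.54 and kept its call in those settings, whereas the factor Hnf4a (0.50) lost it in each. The others were the anion transporters Slc22a8 (0.63, lost in replicates 2 and 3 alone) and Slc22a6 (0.47) and the enzyme Gatm (0.69), both lost without the block, P0 replicate 2 or P4 replicate 3, and Gatm also without P0 replicate 3 or P4 replicate 2.

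The stromal list held 7 falls and 1 rise among 24 genes (median -0.20), and 4 falls without P0 replicate 2. The summed level of its 31 members on the array was 13.39 to 13.54 over the P0 pools and 12.79 to 12.91 over the P4 pools (log2). This sum includes the genes that fell, so it is not separate from their falls. Meis2 and Meis1, homeobox factors of the stroma that other cells also express, fell 3.22-fold and 2.16-fold. Zeb1, a repressor of E-cadherin, was at 9.36, 10.09 and 9.97 and then at 7.997, 8.69 and 8.23, and Foxd1, the stromal progenitor factor, at 9.66, 9.89 and 9.62 and then at 8.43, 8.44 and 8.60. Prrx1 rose by 0.38, lost without the block and without P0 replicate 2, P0 replicate 3, P4 replicate 2 or P4 replicate 3. The part of stromal cells in the other falls was not tested. Of ureteric bud and collecting duct genes 3 of 13 rose (23.1% called, against 10.5% of all genes tested). These were Krt23 (1.99), Sox9 (1.97) and Krt8 (0.68, lost without P0 replicate 2, P0 replicate 3, P4 replicate 1 or P4 replicate 2). The summed level of the 27 members on the array was 11.27 to 11.58 at P0 and 11.77 to 12.07 at P4. This sum includes Krt23 and Sox9, and 10 of the 13 tested members did not pass. Ret, Wnt11 and Krt19 were not above the filter and Hoxb7 was, without passing. Sox9, which tubule cells also express, was at 7.58, 7.61 and 7.62 and then at 8.54, 10.21 and 9.97. Ramp2 was the 1 of 4 endothelial genes that passed (-1.22), Tyrobp the 1 of 4 macrophage and leukocyte genes (0.52, lost without the block, in replicates 2 and 3 alone and without P0 replicate 2, P0 replicate 3, P4 replicate 1 or P4 replicate 2), and the erythroid list had none of 3 (0 at an unadjusted p under 0.05).

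The largest changes held further genes outside these groups. Il33, an alarmin cytokine of the nucleus, was at 9.48, 9.75 and 9.60 at P0 and at 6.83, 6.15 and 6.68 at P4, an 8.31-fold fall. Hpgd, which inactivates prostaglandins, fell 7.60-fold. Ocm, a calcium-binding protein of the parvalbumin family, fell 6.64-fold, with means of 8.42 at P0, 8.55 at P1, 6.44 at P2, 5.52 at P3 and 5.69 at P4. Its fall thus lay between P1 and P3. The long noncoding RNA Pantr1, transcribed beside a POU factor, was at 5.28, 5.21 and 5.44 and then at 8.26, 8.78 and 8.61, a 9.45-fold rise. Fabp7, a fatty acid binding protein, rose 7.25-fold, the extracellular chaperone Clu 6.21-fold, the aminopeptidase Enpep 5.84-fold and the prion protein gene Prnp 5.46-fold. The gene listed as ccdc198 rose 6.97-fold.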

How the data were processed

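RNA of sorted cells was amplified in 1 round, labelled with biotin and hybridised to Affymetrix arrays of the Mouse Gene 1.0 ST class. The authors deposited 1 table of 35557 probe sets, which the submitters' processing notes tie to Affymetrix Expression Console and whose values lie on a log2 scale by their range (2.38 to 13.76). Software version, summarization and background correction were not given in the sources used here, and folds of dim genes would be understated where background remains. Values were used as deposited.

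Of the probe sets, 21789 had 1 symbol, 1621 several and 12147 were not listed in the platform table. The probe set with the highest mean stood for each of 19938 genes (999 had several). Genes above log2 6.86, the median of all values, in at least 3 of 15 arrays were kept. Groups and replicate numbers came from sample titles, and a title without a number was taken as replicate 1. A linear model in limma 3.58.1 (R 4.3.3) with a mean for each of 5 days and the first replicates as a block was fitted to all 15 samples. Tests were two-sided, with Benjamini-Hochberg adjustment over 11885 genes and a threshold of 0.05. Same-numbered P0 and P4 pools deviated together from their day means (correlations 0.627 to 0.713, other pairs -0.595 to 0.0336). The interquartile range also followed the number, at 2.77 (P0) and 2.70 (P4) in replicate 2 and 2.56 and 2.52 in replicate 3. Whether the numbers stand for a pairing of pools was not tested. The block holds only the first replicates, and a block of 3 levels is an alternative. Over all days 29 of 30 same-numbered pairs exceeded 0.1 (lowest 0.0782, P1 with P4 replicate 3, where P1 replicate 3 reached 0.627 with P4 replicate 2). P1 replicates 2 and 3 were at 0.138 and 0.139 with P0 pools of the same number. With P0 pools of the other number, 3 and 2, they reached 0.504 and 0.674. These P1 pools thus did not deviate together with the same-numbered P0 pools as the P4 pools did. The alternatives were other blocks, samples, filters, normalizations, probe set rules and moderation. The script was tested on simulated data.

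Members, lists and tests were chosen with earlier results of these data known. Named were fixed anchor genes, the 12 largest rises and falls whose pools do not overlap, up to 4 called members of each list with the smallest p (up to 2 where none was called), up to 3 called members that moved against their list, and sex-linked genes. Other list members named, and Epcam, Ldha, Car9, Bnip3, Egln3, Itga6, Gdnf, Epha7, Bmp2, Lef1, Osr2, Wt1, Sall1, Pax2, Hes1, Igf2, Slc2a1, Hk2, Lama5 and Col4a1, were chosen after their values were seen. Promoter windows are RefSeq's, matched by symbol for 9487 genes.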

Additional observations from a re-analysis of the deposited data

How the results depend on the processing

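Without the replicate block 669 genes passed, 378 up and 291 down, and in replicates 2 and 3 alone 703, 373 up and 330 down, against 1249, 653 and 596. With 1 sample left out, 905 to 1689 passed, 489 to 812 up and 368 to 877 down. The lowest total and the 368 falls were those without P0 replicate 2, and the highest values were those without P3 replicate 3. In the 6 samples of P0 and P4 alone 895 passed, 493 up and 402 down, of which 839 were among the 1249. There 22 of the 177 named genes counted below lost their call, and losses in that fit are not marked one by one above. With the replicate number as a block of 3 levels 1323 passed, of which 1228 were shared. Median centring put the median difference of all genes at -0.04 and left 544 rises and 627 falls.

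The counts of named genes in this section cover 194 tested genes, picked by the naming rules or added after their values were seen. Other list members named above, such as Pdgfra, Dpf3 and Hoxd11, are outside these counts, and several of them lost calls as marked. Of the 177 counted genes that passed, 128 kept their call in every setting run. Over 3454 values of the counted genes in other settings, 194 no longer passed, 7 newly passed and 13 turned direction, all in genes that did not pass. With 1 sample left out their differences ran from -0.067 to 0.202 for Alas2, -0.085 to 0.539 for Uty, -0.031 to 0.505 for Eif2s3y, -0.193 to 0.268 for Kdm5d, -0.098 to 0.067 for Wt1 and -0.012 to 0.105 for Pax2. In replicates 2 and 3 alone Alas2 was at -0.02, Wt1 at -0.081 and Pax2 at -0.022, and with median centring Kdm5d was at -0.032 and Wt1 at -0.021. The causes were not tested. With 3 pools a day, the number of arrays limits the precision, and a level near background limits folds of dim genes.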

Other observations

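Solute carriers, which move ions and metabolites across membranes, fell in 16 and rose in 8 of 194 cases. This share of 12.4% called was near the 10.5% of all genes tested. Of these carriers, 8 passed the filter only through the P0 pools and 3, Slc7a11 among them, only through the P4 pools. The cystine transporter Slc7a11 was at 5.65, 5.55 and 5.13 in the P0 pools and at 7.12, 7.44 and 7.28 in the P4 pools, a 3.56-fold rise. Slc1a3, a glutamate transporter, fell 2.87-fold, Slc12a2, the sodium, potassium and chloride cotransporter, 2.44-fold, and Slc16a1, which carries lactate, 2.27-fold. Without the block 4 carriers rose and 6 fell, without P0 replicate 1 there were 9 falls, and rises numbered 4 without P0 replicate 2 or P4 replicate 1 and 5 without P4 replicate 3. Among 46 potassium and chloride channels 4 rose and 3 fell (15.2% called, against 10.5% of all genes tested). Kcnc2 and Kcnj16 passed the filter only through the P4 pools, and among the other 44 channels 2 rose. The chloride channel Ano1 rose 5.21-fold from 6.63, 7.11 and 6.90 to 8.92, 9.61 and 9.26, Kcnc2 rose 3.83-fold, Kcnj16 2.29-fold and Kcnk1 by 0.71 (lost without the block, in replicates 2 and 3 alone and without P0 replicate 1, P4 replicate 1 or P4 replicate 3). Cftr (-0.92), Kcnmb2 (-1.14) and Kcnq5 (-0.61, lost without P0 replicate 2 or P4 replicate 2) fell.

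None of 58 ribosomal protein genes passed by limma, 5 had an unadjusted p under 0.05, and without P3 replicate 3 there were 2 falls and without P4 replicate 2 there was 1. Shares called in the next lists were 2.53% (respiratory chain), 16.7% (IGF and insulin) and 7.5% (chromatin). Those of the last lists were 30% (interferon and cytokine), 7.14% (immediate-early and heat shock) and 14.3% (fatty acid oxidation). Over all genes tested the share was 10.5%. Of 79 respiratory chain genes 2 fell, Cox6b2 (-0.65, lost without the block) and Cox7a2l (-0.39, lost in replicates 2 and 3 alone). Of 24 genes of IGF and insulin signalling, the binding protein genes Igfbp5 (-1.54) and Igfbp7 (1.26) moved in opposite directions, with Igfbp7 at 8.51, 8.92 and 8.61 at P0 and at 9.83, 10.05 and 9.94 at P4. Foxo3 fell by 0.79 and Pappa rose by 0.53. Of 40 chromatin regulators 3 fell, led by Phf19, a Polycomb partner (-1.37, SE 0.13). Ezh1 (-0.67) and Chd3 (-0.44) were the others, both lost in replicates 2 and 3 alone and without P0 replicate 1 or P4 replicate 1, Ezh1 also without P0 replicate 2 or P4 replicate 3 and Chd3 without the block or P0 replicate 3. Of 10 interferon and cytokine genes the chemokine Cxcl14 rose 3.23-fold, beside the falls of Il33 and of Ifit2 (-0.84, adjusted p = 0.0373, lost without the block, in replicates 2 and 3 alone and without P0 replicate 1, 2 or 3 or P4 replicate 3). Of 28 immediate-early and heat shock genes Zfp36 fell by 0.85 (lost without P0 replicate 2, P0 replicate 3 or P4 replicate 1) and Fosl2 rose by 0.46 (lost without the block, P0 replicate 2, P4 replicate 2 or P4 replicate 3). Of 28 fatty acid oxidation and mitochondrial genes Fabp7 and Fabp5 (0.50, lost in replicates 2 and 3 alone) rose and Hadhb (-0.43) and Eci1 (-0.34) fell. The calls of the last pair were lost without the block, in replicates 2 and 3 alone and without P0 replicate 2, P4 replicate 1 or P4 replicate 3, that of Hadhb also without P0 replicate 1 and that of Eci1 without P0 replicate 3 and with a block of 3 levels.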
